A study of Mus musculus with 8 samples.

Results

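The cystatin genes that mouse testis is known for were followed in bulk RNA sequencing of whole adult testis. The 7 genes are Cst3, Cst8, Cst9, Cst11, Cst12, Cst13 and Cstl1. They were chosen by symbol, each matched 1 Ensembl identifier of the count table, and they make up 7 of its 56748 genes. The libraries came from adult testes labelled Ssty2-/- (Ssty2 knockout, 4 libraries) and from adult testes labelled wild type (WT, 4 libraries). Ssty2 is a repeated gene of the mouse Y chromosome long arm, and the study's title speaks of a deletion of its copies and of an altered sex ratio. The labels give neither strain nor age beyond adult, do not describe how the deletion was made, and do not say that each library is a separate animal, so the spread behind each p-value is that of libraries and could be technical.

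Cystatins are small proteins that block papain-like cysteine proteases, such as the cathepsins of the lysosome, and some of them also block legumain. Cystatin C, the product of Cst3, is the broadly made secreted form. The CRES subgroup, named after Cst8 (cystatin-related epididymal spermatogenic), has its activity mainly in the male reproductive tract, and several of its members lack residues that typical cystatins use to bind proteases. In mouse the subgroup's genes lie beside Cst3 in a cluster on chromosome 2.

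Library totals ran from 18036708 to 24415587 counts. Ssty2 had 0 counts in each of the 4 Ssty2 knockout libraries and 45 to 83 counts in the WT libraries. Markers of the labelled tissue were present: all 24 Sertoli cell markers, 19 of 20 round spermatid markers and all 12 Leydig cell markers had enough counts to be tested. None of the 7 cystatins shared a 31-base word of its transcripts with another gene (0% for each) or overlapped another gene in the annotation used.

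Among the 7 cystatins, Cst3 and Cst12 fell and Cst8 rose in Ssty2 knockout testis, while Cst9, Cst13 and Cstl1 did not pass the test and Cst11 had too few counts to be tested. Thus 2 of the 6 tested genes were lower and 1 was higher at an adjusted p under 0.05 (edgeR quasi-likelihood test, Benjamini-Hochberg adjustment over 21952 genes). Of all genes tested, 27.4% were lower, 26.2% were higher and 53.5% changed in either direction, so the share of cystatins called is near that background. The median log2 fold change was 0.096 for the 6 tested cystatins, with values on both sides of 0, and -0.009 for all tested genes. The ranges of the 2 genotypes did not overlap for Cst3, Cst12 and Cst8, against 46.7% of all tested genes. In the same libraries 22 of 24 Sertoli cell markers were lower and 19 of 19 tested round spermatid markers were higher in knockout, and in bulk tissue fewer cells of a type and less RNA per cell cannot be told apart.

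**Figure D1:**
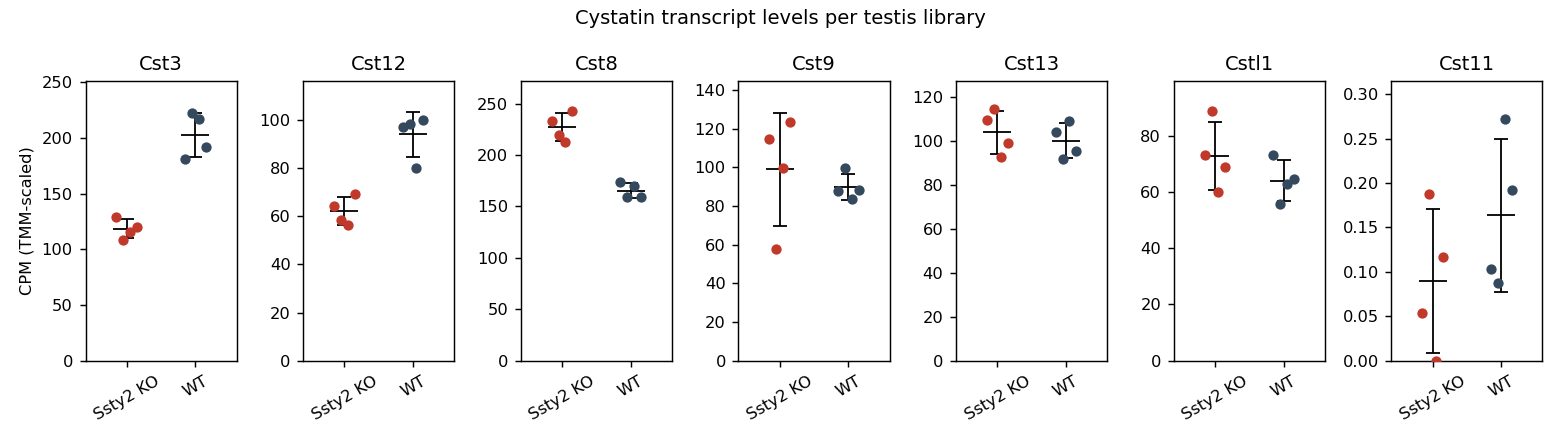
Level of each of the 7 cystatins in every library, in CPM (library-scaled counts, y axis, scaled per gene and starting at 0), with Ssty2 knockout and WT libraries on the x axis. Points are libraries, the long bar is the mean and the whiskers are 1 SD (n = 4). Cst3 and Cst12 lie lower and Cst8 higher in all 4 knockout libraries, whereas the points of the other 4 genes overlap.

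Cst3 (ENSMUSG00000027447), the gene of cystatin C, had the largest change of the 6. Its level, in CPM after TMM scaling (trimmed means of M-values), was 129, 109, 116 and 120.2 in Ssty2 knockout libraries 1 to 4, against 181, 222, 217 and 192 in WT libraries 1 to 4. All knockout libraries were below all WT libraries. The means were 118 ± 8.64 CPM in knockout and 203 ± 19.9 CPM in WT (SD, n = 4 each). The log2 fold change of -0.78 (SE 0.071, 95% confidence interval -0.93 to -0.63) puts the knockout level at 0.584 of the WT level, with an edgeR adjusted p of 3.06e-07.

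Cst12 (ENSMUSG00000027443), which RefSeq also lists as CRES3, was measured at 64.4, 58.5, 56.6 and 69.2 CPM in the knockout libraries, against 97.2, 98.6, 80.3 and 100.2 CPM in the WT libraries. WT library 3 lay well below the other 3 WT libraries but still above every knockout library. The means were 62.2 ± 5.72 CPM in knockout and 94.1 ± 9.29 CPM in WT (SD, n = 4 each). Cst12 fell by 0.60 on the log2 scale (SE 0.079, interval -0.77 to -0.43, edgeR adjusted p = 1.22e-05), to 0.661 of its WT level. The drop was -0.67 without WT library 3.

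Cst8 (ENSMUSG00000027442) encodes CRES, a protein of round spermatids and of the first segment of the epididymis in mouse. It had 233, 219, 213 and 243 CPM in the knockout libraries, against 174, 160.0, 169 and 159 CPM in the WT libraries. Every knockout library was above every WT library, and the libraries of each genotype lay close together. Cst8 rose by a log2 fold change of 0.46 (SE 0.056, interval 0.34 to 0.57, edgeR adjusted p = 6.09e-06), a level 1.37 times that of WT.

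The 250 bases before the transcription start are shown for these 3 genes, the members that changed, 5′ to 3′ on each gene's own strand. They were read from RefSeq promoters of the build GRCm38.p6. The Cst3 stretch is chr2:148875513-148875762 on the minus strand, the Cst12 stretch chr2:148789115-148789364 on the plus strand, and the Cst8 stretch chr2:148798589-148798838 on the plus strand. Capitals mark the only match to the searched motifs in the Cst3 stretch and in the Cst8 stretch, and the Cst12 stretch has none.
Cst3: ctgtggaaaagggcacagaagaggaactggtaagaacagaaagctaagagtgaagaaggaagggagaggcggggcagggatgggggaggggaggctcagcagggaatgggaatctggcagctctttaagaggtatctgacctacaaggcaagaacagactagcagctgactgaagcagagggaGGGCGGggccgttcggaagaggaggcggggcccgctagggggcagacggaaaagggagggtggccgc
Cst12: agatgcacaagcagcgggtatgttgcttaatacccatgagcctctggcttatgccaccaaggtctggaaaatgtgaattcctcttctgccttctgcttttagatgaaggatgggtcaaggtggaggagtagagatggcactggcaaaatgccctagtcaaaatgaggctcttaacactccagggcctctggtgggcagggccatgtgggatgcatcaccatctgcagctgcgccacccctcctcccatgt
Cst8: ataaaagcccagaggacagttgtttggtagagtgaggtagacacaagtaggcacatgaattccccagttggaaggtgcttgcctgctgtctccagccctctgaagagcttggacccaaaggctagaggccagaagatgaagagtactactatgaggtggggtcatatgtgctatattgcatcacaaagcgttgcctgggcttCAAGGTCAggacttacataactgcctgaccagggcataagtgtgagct

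In Cst3 the capitals are a GC box, GGGCGG, 62 to 67 bases before the start, and 32.7% of 32851 RefSeq promoters hold 1 or more in the same window. The Cst8 capitals are CAAGGTCA, the motif named after steroidogenic factor 1, 41 to 48 bases before the start, which 1.33% of promoters hold. Cst12 had no match to any of the 8 motifs, which were TATAAA (in 12.4% of promoters), GGGCGG, TGACGTCA (1.55%), its core TGACG (17.8%, which TGACGTCA contains), CAAGGTCA, GATAA (22.6%), AACAAT (9.42%) and CCAAT (33.8%), on both strands. The motifs were chosen with the sequences at hand, so a match is a description of the letters and not a site. G and C made up 59.6% of the Cst3 stretch, 52.8% of the Cst12 stretch and 49.6% of the Cst8 stretch, against a median of 52.4% over all promoters. The promoters of Cst9, Cst13 and Cstl1 held neither a GC box nor CAAGGTCA.

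Cst9 (ENSMUSG00000027445), the gene of testatin, was first described in the fetal mouse testis at the time of sex determination. Its level was 115, 57.9, 99.96 and 123 CPM in the knockout libraries, against 87.8, 99.5, 83.7 and 88.4 CPM in the WT libraries. Knockout library 2 was the lowest of all 8, and the other 3 knockout libraries were above every WT library. With all libraries the log2 fold change was 0.14 (SE 0.15, interval -0.19 to 0.46) and did not pass (edgeR adjusted p = 0.465). Without knockout library 2 it was 0.33 with an edgeR adjusted p of 0.00271, so that 1 library decides the call. The SD among knockout libraries, 29.1 CPM, was the widest of the 7 genes, against 6.79 CPM among WT libraries.

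Cst13 (ENSMUSG00000036924), which RefSeq also lists as Cymg1, had 109, 115, 92.7 and 99.3 CPM in the knockout libraries, against 104, 91.8, 109 and 95.7 CPM in the WT libraries. The genotypes overlapped nearly over their whole range. The log2 fold change of 0.05 had an interval of -0.10 to 0.21 and did not pass (SE 0.073, edgeR adjusted p = 0.554).

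Cstl1 (ENSMUSG00000055177), cystatin-like 1, was at 73.3, 88.7, 60.1 and 69.0 CPM in the knockout libraries, against 73.1, 55.6, 62.9 and 64.4 CPM in the WT libraries. Knockout library 2 was the highest of the 8 and knockout library 3 the second lowest, within the WT range. The log2 fold change was 0.19 (SE 0.10, interval -0.03 to 0.40, edgeR adjusted p = 0.131), and did not pass. The call turns on the setting, since the adjusted p was 0.0261 without knockout library 3 (log2 fold change 0.27), 0.0473 with upper-quartile scaling and 0.0327 with no low-count filter. The fit with no filter gave far smaller adjusted p-values at nearly the same fold change. For Cst3 the edgeR adjusted p was 4.485e-34 there (log2 fold change -0.783), against 3.06e-07 in the main fit (-0.776).

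Cst11 (ENSMUSG00000036958), known as a cystatin of the epididymis, had 1, 4, 0 and 2 counts in the knockout libraries, against 2, 2, 7 and 4 counts in the WT libraries. With 7 counts in all knockout libraries and 15 in all WT libraries, the ratio of their depth-scaled levels was 0.529, with an exact 95% interval of 0.183 to 1.38 that covers counting error only. A difference was therefore not detectable at this depth. The count of 0 in knockout library 3 allows up to 3 counts, and 3 counts were worth 0.141 to 0.175 CPM in a knockout library. Epididymal RNA was scarce in general: of 16 epididymis markers, 11 had too few counts to test, with 66 counts in the knockout libraries and 64 in the WT libraries summed over these 11 genes, and Lcn10 and Ovch2 had none.

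Per kilobase of exon, which allows genes to be set beside each other, the order of the cystatins differed between the genotypes. In knockout libraries the means were 266 ± 15.9 CPM per kilobase for Cst8, 144 ± 42.3 for Cst9, 133 ± 12.6 for Cst13, 101 ± 16.6 for Cstl1, 94.9 ± 8.73 for Cst12 and 93.6 ± 6.82 for Cst3 (SD, n = 4). In WT libraries they were 194 ± 8.53 CPM per kilobase for Cst8, 160.2 ± 15.7 for Cst3, 144 ± 14.2 for Cst12, 131 ± 9.88 for Cst9, 128 ± 10.1 for Cst13 and 88.7 ± 9.998 for Cstl1. Cst11 came last in both, at 0.146 CPM per kilobase in knockout and 0.266 in WT. Cst8 was first in both genotypes, and its range did not overlap that of the next gene in either.

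Cst3 thus stood at position 6 in knockout and at position 2 in WT. In knockout libraries the neighbours from Cst9 down to Cst3 overlapped pair by pair, although Cst13 was clear of both Cst12 and Cst3. In WT libraries Cst3 and Cst12, Cst12 and Cst9, and Cst9 and Cst13 overlapped, while Cst13 was clear of Cstl1.

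The sum over the 7 genes was 832 ± 60.6 CPM per kilobase in knockout and 845 ± 11.5 in WT (SD, n = 4 each), a difference smaller than the spread among knockout libraries. The makeup of that sum differed. Cst8 made up 32.0% ± 0.724 of it in knockout libraries and 22.9% ± 0.887 in WT libraries. Cst3 made up 11.2% ± 0.529 in knockout and 19.0% ± 1.86 in WT, and Cst12 11.4% ± 0.349 in knockout and 17.0% ± 1.68 in WT.

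Ratios between 2 cystatins of the same library do not depend on how libraries are scaled. All 15 pairs of the 6 tested genes were compared by exact permutation of the libraries (two-sided), which with 4 against 4 cannot give a p below 0.0286, and p-values were adjusted over the 15 pairs. The log2 ratio of Cst3 over Cst8 was -0.85, -1.01, -0.88 and -1.01 in the knockout libraries, against 0.06, 0.48, 0.35 and 0.27 in the WT libraries. The mean difference was -1.23 (exact p = 0.0286, adjusted 0.0536), lower in 4 of 4 knockout libraries than in any WT library.

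The log2 ratio of Cst8 over Cst12 was 1.85, 1.90, 1.91 and 1.81 in the knockout libraries, against 0.84, 0.69, 1.08 and 0.67 in the WT libraries, with no overlap. Its mean difference was 1.05 (exact p = 0.0286, adjusted 0.0536). In all, 8 of the 15 pairs reached this smallest p, and no pair had an adjusted p under 0.05. Besides Cst3 over Cst8 and Cst8 over Cst12 they were Cst3 over Cst9, Cst13 and Cstl1 (differences -0.86, -0.82 and -0.95), Cst8 over Cst13 (0.40), and Cst12 over Cst13 and Cstl1 (-0.65 and -0.77). For a pair at the smallest p, the adjusted p is set by how many of the 15 pairs reach it, not by the size of the difference.

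Cst3 over Cst12, the genes that fell, differed by -0.18 between genotypes (exact p = 0.257, adjusted 0.297), and by -0.07 without WT library 3. Its log2 ratio was 1.01, 0.89, 1.03 and 0.80 in the knockout libraries, against 0.89, 1.17, 1.43 and 0.94 in the WT libraries, which overlap. Cst9 over Cst13 (0.03), Cst9 over Cstl1 (-0.09) and Cst13 over Cstl1 (-0.13) also did not pass, with exact p of 1, 0.914 and 0.257. The remaining pairs, Cst8 over Cst9 (0.37), Cst8 over Cstl1 (0.28) and Cst9 over Cst12 (0.68), overlapped between genotypes (exact p = 0.114, 0.0857 and 0.0857). Without knockout library 2, Cst8 over Cst9 differed by 0.15, Cst9 over Cst13 by 0.32 and Cst9 over Cstl1 by 0.25.

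The cystatins were also set against markers of the cells that make up testis. These lists were chosen with earlier results of these data known, so their counts and the ratios to their sums are a description. Of the 24 Sertoli cell markers tested, 22 were lower and 0 higher in knockout (median log2 fold change -0.60), and their summed level was 1490 to 1690 CPM in knockout libraries and 2241 to 2525 CPM in WT libraries. Of the 19 round spermatid markers tested, 19 were higher (median 0.52), with 5923 to 6096 CPM in knockout libraries and 3842 to 4275 CPM in WT libraries. Those with the smallest p were Inha, Aard and Inhbb among Sertoli cell markers (log2 fold changes -0.97, -0.77 and -0.83) and Izumo1, Gsg1 and Catsper4 among round spermatid markers (0.85, 0.61 and 0.79). Both sums lean on a few abundant genes. Clu alone averaged 826 CPM in knockout and 1152 CPM in WT. Gsg1 and Pgk2 averaged 1297 and 1342 CPM in knockout, and 848 and 894 CPM in WT.

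Among other somatic lists, 12 of 12 Leydig cell markers were lower (median -0.98, Cyp17a1 at -1.16), as were 8 of 9 peritubular myoid markers (-0.58) and 8 of 11 macrophage markers (-0.56). Of 10 endothelial markers 3 were lower (Cdh5, Eng and Egfl7; median -0.30), a share near the 27.4% of all tested genes. Among germ cell lists, 14 of 15 elongating spermatid markers were higher (median 0.56), 10 of 13 spermatogonial markers were lower (-0.74, with Gfra1 higher at 0.47), and of 16 spermatocyte markers 7 were lower and 2, Syce1 and Ldhc, higher (-0.14). Of 5 tested epididymis markers 2 were lower (Spink8 and Cuzd1), and the 3 tested erythroid markers had a median of -0.007. The part of these cell types in the cystatin values was not tested.

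**Figure D2:**
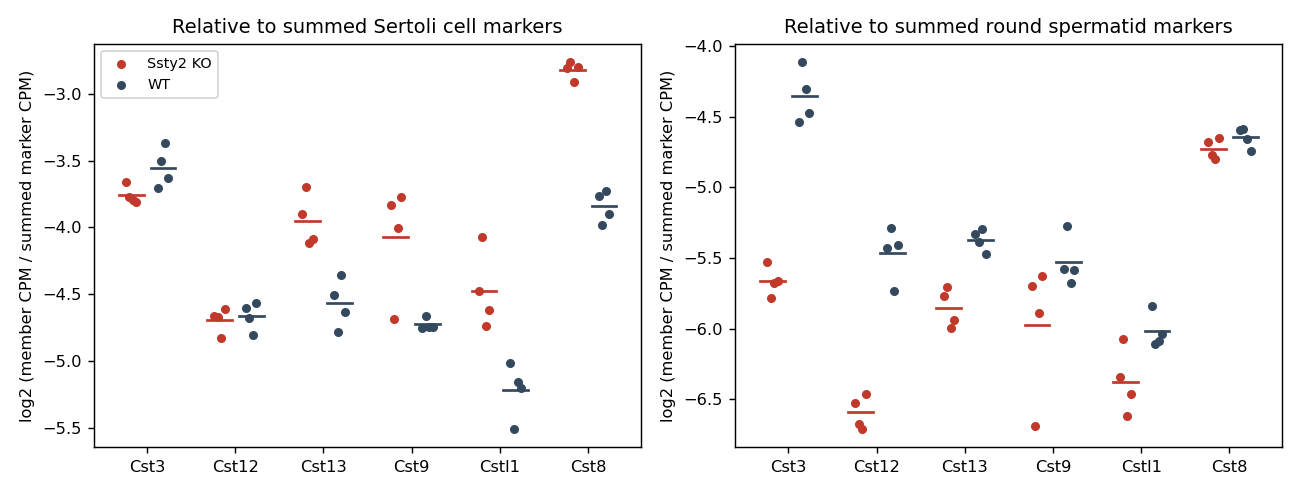
Log2 ratio of each tested cystatin to the summed CPM of 24 Sertoli cell markers (left) and of 20 round spermatid markers (right), y axes, with 1 point per library and a bar at the mean of each genotype. On the left, Cst3, Cst12 and Cst9 overlap between Ssty2 knockout and WT, and Cst8, Cst13 and Cstl1 lie higher in all 4 knockout libraries. On the right, Cst8, Cst9 and Cstl1 overlap, and Cst3, Cst12 and Cst13 lie lower in all 4 knockout libraries.

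Relative to the Sertoli cell sum, Cst12 had log2 ratios of -4.67, -4.67, -4.83 and -4.61 in the knockout libraries, against -4.60, -4.68, -4.80 and -4.56 in the WT libraries. The genotypes overlapped throughout, with a mean difference of -0.03 (exact permutation p = 0.629), and -0.08 to 0.01 when single libraries were left out. Cst3 differed by -0.21 on this measure and also overlapped (exact p = 0.0571, adjusted over the 12 such ratios 0.0762). Cst8, Cst13 and Cstl1 were higher relative to the Sertoli sum in 4 of 4 knockout libraries, by 1.02, 0.62 and 0.74 (exact p = 0.0286, adjusted 0.0571 each). Cst9 differed by 0.65 (exact p = 0.0571), with knockout library 2 inside the WT range.

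Relative to the round spermatid sum, Cst8 had log2 ratios of -4.68, -4.77, -4.80 and -4.65 in the knockout libraries, against -4.59, -4.59, -4.66 and -4.74 in the WT libraries. These overlapped, with a mean difference of -0.08 (exact p = 0.2). Cst3, Cst12 and Cst13 were lower on this measure in 4 of 4 knockout libraries, by differences of -1.31, -1.13 and -0.48 (exact p = 0.0286, adjusted 0.0571 each). Cst9 and Cstl1 differed by -0.45 and -0.36 and overlapped (exact p = 0.0571 and 0.0857), and without knockout library 2 the difference of Cst9 was -0.21. None of the 12 ratios had an adjusted p under 0.05 with the summed lists. Both sums differed between genotypes, at 0.676 (Sertoli) and 1.45 (round spermatid) of WT. A gene whose own level is unchanged therefore moves up against the Sertoli sum and down against the round spermatid sum. Cst13, at a log2 fold change of 0.05 that did not pass, did so with the smallest exact p on both measures. These p-values describe the ratios and not a change of the cystatin itself.

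For each tested cystatin, the 2 genes with the most similar profile over the 8 libraries were picked from 17120 genes by the root mean square difference of their centred log2 CPM. Cst3 was nearest to Dnajc25 (0.042) and Glud1 (0.046), Cst12 to Zfp710 (0.050) and Ttll12 (0.056), and Cst8 to Pkib (0.034) and Lemd1 (0.036). Cst13 was nearest to Rad9a (0.039) and Tlcd1 (0.042), and Cstl1 to Tubb2a (0.056) and Gm43352 (0.078). For Cst9 the nearest genes, Hmga1 (0.147) and 8030451A03Rik (0.153), were farther off than those of the other 5 cystatins. None of these 12 genes is on chromosome 2, but the share of the 17120 genes on that chromosome was not worked out.

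Along chromosome 2 the cluster runs, in annotation order, Cstl1, Cst11, Cstdc1, Cst12, Cst8, Cst13, Cst9, Cstdc2 and Cst3. Genes that fell and rose stand side by side, since Cst12, at 0.661 of its WT level, is the direct neighbour of Cst8, at 1.37 times its WT level. Cst3, Cst11 and Cstdc2 lie on the minus strand and the other 6 on the plus strand. Cstdc1, which RefSeq also lists as Cst14, was at 4.76 ± 1.01 CPM in knockout and 7.71 ± 1.13 CPM in WT (SD, n = 4 each), and fell by 0.70 on the log2 scale (edgeR adjusted p = 0.0018).

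Cstdc2, the neighbour of Cst3, was at 11.7, 7.18, 11.1 and 7.86 CPM in the knockout libraries, against 11.01, 20.6, 30.7 and 11.8 CPM in the WT libraries. It fell by 0.98 on the log2 scale (edgeR adjusted p = 0.00441), although its 2 lowest WT libraries lie within the knockout range or next to it. Of the 22 genes within the cluster or among the 10 nearest protein-coding genes on each side that are not among the 7, 14 were tested. Of these, 3 were lower and 0 higher (median -0.19), a share near the 27.4% lower among all tested genes. The 3 were Cstdc1, Cstdc2 and Gzf1, a zinc finger gene at -0.42.

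**Figure D3:**
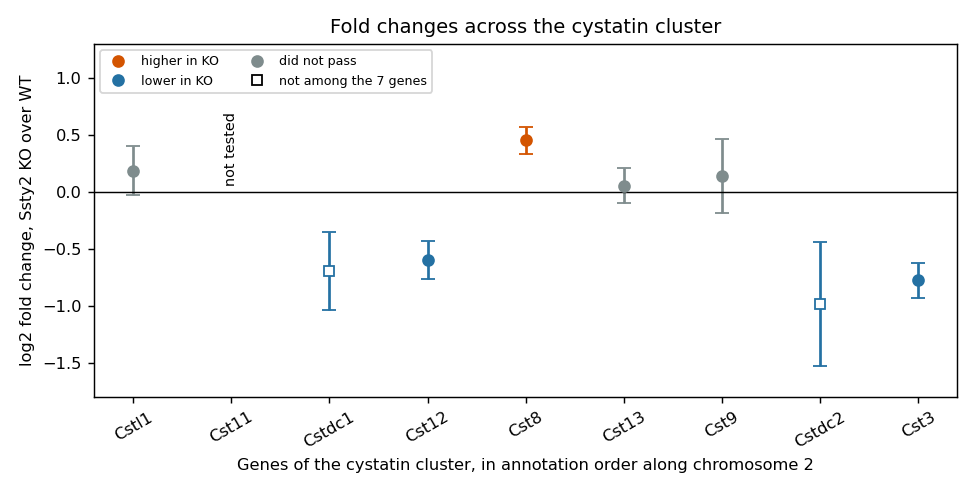
Log2 fold change of Ssty2 knockout over WT (y axis) for the genes of the cystatin cluster in their annotation order along chromosome 2 (x axis, not to scale), with 95% confidence intervals from edgeR. Filled circles are genes among the 7 and open squares are Cstdc1 and Cstdc2. Cst8 at 0.46 stands between Cst12 at -0.60 and Cst13 at 0.05, and Cst11 was not tested.

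Of 21 further genes of the cystatin superfamily, in the cluster or elsewhere, 7 were tested. Of these, 4 were lower and 0 higher in knockout (median -0.70), against 27.4% lower among all tested genes. Besides Cstdc1 and Cstdc2, which lie within the cluster and were already counted there, these were Cstb, the intracellular cystatin B, and Fetub. The product of Fetub, fetuin B, is known as an inhibitor of a metalloprotease that acts on the egg coat. Cstb was at 6.07, 7.61, 7.24 and 8.27 CPM in the knockout libraries, against 14, 14.3, 12.5 and 13.99 CPM in the WT libraries, without overlap (log2 fold change -0.91, edgeR adjusted p = 4.87e-06). Fetub was at 1.07, 0.986, 1.80 and 0.291 CPM in the knockout libraries, against 3.14, 4.46, 4.79 and 4.62 CPM in the WT libraries, also without overlap (log2 fold change -2.001, edgeR adjusted p = 3.36e-05). Csta3, Cst6 and Kng2 averaged under 1 CPM in both genotypes and did not pass (edgeR adjusted p = 0.408, 0.916 and 0.25).

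Most of the proteases that cystatins are known to block were lower in knockout, as Cst3 was. Of 10 cysteine protease genes tested, 8 were lower and 0 higher (median -0.65, against -0.009 for all genes). Of all genes tested, 27.4% were lower. The fall was not particular to these proteases, since the Sertoli cell, Leydig cell, peritubular myoid and macrophage lists had medians of -0.60, -0.98, -0.585 and -0.56. The summed level of the protease list was 433 to 491 CPM in knockout libraries and 655 to 776 CPM in WT libraries. Ctsb, the lysosomal protease cathepsin B, was at 66.9, 66.4, 67.9 and 71.7 CPM in the knockout libraries, against 112, 127, 131 and 138 CPM in the WT libraries.

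Ctsb thus did not overlap between genotypes and had a log2 fold change of -0.90 (edgeR adjusted p = 2.26e-08). Lgmn, the gene of legumain, averaged 36.4 ± 1.18 CPM in knockout and 62.9 ± 4.46 CPM in WT (log2 fold change -0.79, edgeR adjusted p = 1.24e-07). Ctsl, the gene of cathepsin L, averaged 298 ± 21.1 CPM in knockout and 428 ± 42.9 CPM in WT (log2 fold change -0.52, edgeR adjusted p = 1.17e-05). Ctso, Ctsh, Ctsz, Ctsf and Ctsc were also lower, with log2 fold changes between -0.75 and -0.45, whereas Ctsk at -0.35 and Ctss at -0.37 did not pass (edgeR adjusted p = 0.317 and 0.0829). The fold change of Cst3, -0.78, lay within the range of the 8 proteases that fell, as did that of Cst12, -0.60.

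**Figure D4:**
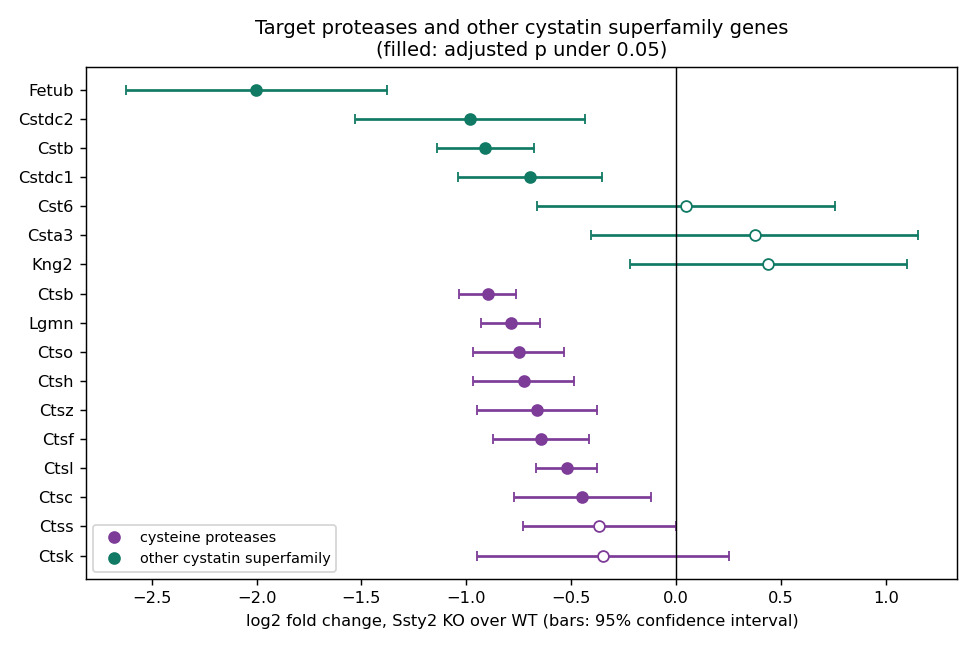
Log2 fold change of Ssty2 knockout over WT (x axis) with 95% confidence intervals for the 7 tested further cystatin superfamily genes (upper rows) and the 10 tested cysteine protease genes (lower rows). Filled points passed an edgeR adjusted p of 0.05. All 12 filled points lie below 0, and Ctsb at -0.90 is the lowest protease.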

How the data were processed

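Per the labels' protocols, TRIzol RNA was cleared of DNA and sequenced from TruSeq RNA libraries, with no word on strand. The authors deposited raw counts per Ensembl gene, whole numbers without normalization. STAR, featureCounts, Trimmomatic, FastQC and DESeq2, with the build mm39, are named in the submitters' processing notes; for versions, annotation, strand setting and the treatment of multi-mapping reads the sources used here give nothing. Symbols, gene order and exon lengths came from GENCODE vM21 (GRCm38), supplemented by RefSeq; because the builds differ, no gene coordinates of it are printed. A symbol was found for 52073 of 56748 genes.

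The table, filtered with filterByExpr at a minimum count of 10 and a minimum total of 15, was scaled by TMM and tested with edgeR 4.0.16 (quasi-likelihood, genotype only, R 4.3.3), with Benjamini-Hochberg adjustment over all 21952 tested genes and a threshold of 0.05. The test was tried first on simulated counts with far fewer changed genes than here. That trial does not check the scaling or the calls where 53.5% of genes pass. DESeq2 1.42.0, limma 3.58.1 (voom), other scalings, no filter, a replicate block and leaving out each library were alternatives. Ratios were tested with exact permutation over libraries. Limits at 0 counts and count ratios use exact Poisson counting and cover counting error only. Within genotypes, the chi-square of 2 libraries' counts was 4.19 to 8.52 times its degrees of freedom, so no 2 libraries agreed within sampling noise.

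The 7 genes and the gene lists were chosen with earlier results of these data known. Named besides the 7 were, per list, up to 3 genes with the smallest p and any member in a direction that 5 or fewer took, flanking genes called with an absolute log2 fold change of at least 1, and the 2 genes nearest in profile (mean log2 CPM of at least 1, pseudocount 0.5). Gzf1, Cstdc1 and the remaining proteases were named after their values were seen. RefSeq promoters were found for 6 of the 7 genes.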

Additional observations from a re-analysis of the deposited data

Results flagged for a closer look

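In 46 groups of 4 libraries (the tested cystatins, further cystatin genes and proteases in each genotype), a library was picked out when its gap to the nearest other, divided by the range of the group, was above Dixon's 95% critical value. Chance alone picks about 1 group in 20, and 4 were picked. Cst12 in WT library 3 was at 80.3 CPM, below the 97.2 to 100.2 CPM of the other WT libraries. Csta3 in WT library 2 was at 0.262 CPM, below the 0.662 to 0.721 CPM of the others. Cstdc1 in knockout library 3 was at 3.27 CPM, below the 5.10 to 5.47 CPM of the other knockout libraries. Lgmn in WT library 2 was at 69.6 CPM, above the 60.6 to 60.7 CPM of the others. What sets these libraries apart was not tested.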

How the results depend on the processing

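Of 90 fold changes of the 6 tested cystatins under 15 alternatives each, 86 kept their call (2 of them, Cst9 and Cst13 with library totals, changed sign without passing), and the calls of Cst3 (-0.92 to -0.70), Cst12 (-0.74 to -0.53) and Cst8 (0.31 to 0.53) held in all 15. Cstl1 passed with upper-quartile scaling (0.26) and without the filter (0.18), which made 2 cystatins higher, and ran from 0.077 to 0.272 when single libraries were left out. Cst9 ran from 0.016 to 0.328 in the same way, and the cystatins called higher were then 1 to 2. Scaling by library totals moved the median of all genes to -0.15 and the share of calls that were higher to 31.8%, against 48.9% with TMM; Cst9 was then at 0.00 and Cst13 at -0.09, neither passing. With the mean log2 CPM of each list in place of its sum, 7 ratios passed (adjusted exact p = 0.049), for the Sertoli list Cst8 (1.09), Cst9 (0.72), Cst13 (0.69) and Cstl1 (0.81), and for the round spermatid list Cst3 (-1.30), Cst12 (-1.13) and Cst13 (-0.48). Among these 7, only Cst9 over the Sertoli list changed its exact p, from 0.0571 with the sum to 0.0286. The others had the smallest exact p, 0.0286, under both measures. They passed because the adjustment over the 12 ratios depends on how many ratios reach that p. Spermatocyte markers called higher were 1 with library totals and 4 with upper-quartile scaling. Endothelial markers called lower were 5, and flanking genes 6, with library totals. Epididymis markers called lower were 1 with DESeq2-type or upper-quartile scaling, DESeq2, no filter or the replicate block, 3 with library totals, and 1 to 2 when single libraries were left out. The cause of these changes was not tested.

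Deviations of same-numbered libraries were weakly correlated (0.08, 0.02, 0.06 and 0.002), all above 0 and none over 0.1. Pairs with different numbers ran from -0.07 to 0.04. The labels do not say that the numbers pair libraries, so the main fit did not pair them. Knockout libraries 1, 2 and 3 each correlated best with their own number, and knockout library 4 with WT library 2 (0.01). With the replicate block, 5915 genes were higher and 6203 lower, and Cst3, Cst12 and Cst8 had log2 fold changes of -0.77, -0.60 and 0.46. Depth limits Cst11, and the exact tests cannot go below 0.0286, or 0.0571 with a library left out.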
